A study of Mus musculus with 37 samples.

Results

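The genes described are 70 ligands and receptors of axon guidance, out of 18193 genes that the array names with a single symbol. They were taken by symbol: 20 semaphorins, 11 plexins and neuropilins, 8 ephrins, 13 Eph receptors, 7 Slit and Robo genes and 11 netrins, netrin-G genes, Unc5 receptors and Dcc. Each gene is represented by its probe set (a group of short probes to the same transcript) with the highest mean over all arrays. The genes were measured in astrocytes cultured from newborn male and female mice, either 129S4/SvJae, called 129 here, or C57BL/6J, called B6. The cells had been nucleofected with pcDNA3.1-hygro carrying CDCA7L, or with the empty pcDNA3.1-hygro vector, and the design text calls the cultures stably transfected independent isolates. Cdca7l arrays numbered 4 for 129 females, 5 for 129 males, 4 for B6 females and 5 for B6 males, and vector arrays numbered 4, 5, 5 and 5 in the same order. Titles add a clone number, such as 4(1), which a Cdca7l and a vector array of the same strain and sex can share. The labels do not say what a shared clone number means, so p-values measure the spread between these 37 arrays, which may in part be technical.

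Axon guidance proteins are cues and sensors that steer growing axons and migrating cells by attraction or repulsion. Semaphorins act through plexins, with neuropilins as co-receptors for the secreted class 3 members. Ephrins are bound to the membrane and signal to Eph receptor tyrosine kinases on neighbouring cells, and ephrin-bearing cells can receive a signal in return. Slits repel through Robo receptors, and netrins attract or repel through Dcc and Unc5 receptors. Astrocytes make many of these cues and receptors, which are known in glia for roles in boundaries between cells, vessel contact, synapse formation and the response to injury.

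Of the 70 genes, 39 exceeded the background level on all 37 arrays and 12 exceeded it on none. The background level is the median of the whole table, 3.19 on the log2 scale of the deposited values. The test took genes with 4 or more arrays over that level, which were 55 of the 70: 18 semaphorins, 10 plexins and neuropilins, all 8 ephrins, 9 Eph receptors, 5 Slit and Robo genes and 5 of the netrin group. The 15 that were not tested were Sema3g, Sema6c, Plxna4, Epha1, Epha6, Epha8, Epha10, Slit1, Robo4, Ntn3, Ntn5, Ntng2, Unc5a, Unc5d and Dcc. Dcc, the classical attractive netrin receptor, exceeded background on 3 arrays, and Unc5d and Ntng2 on 1 array each.

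**Figure D1:**
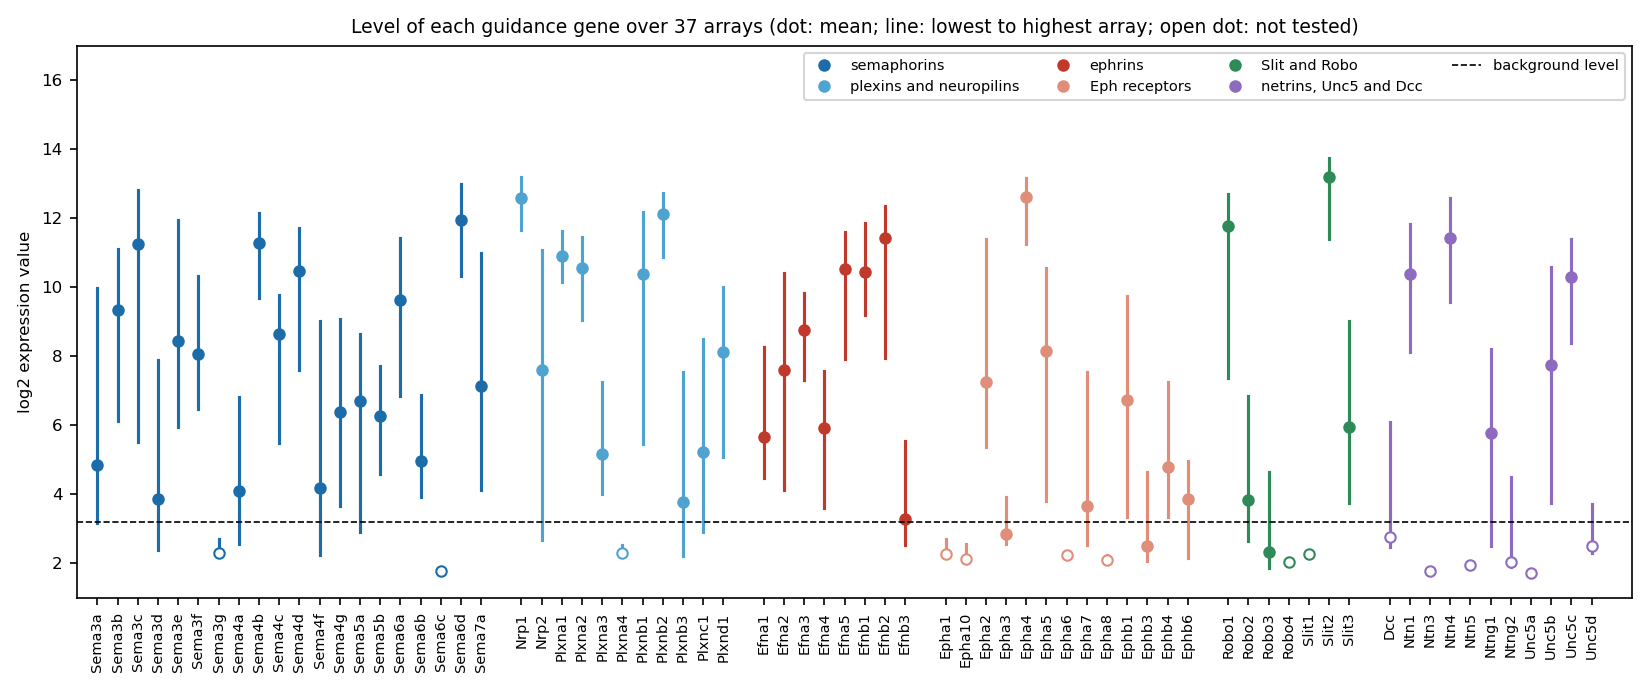
Deposited log2 value of each of the 70 genes (y axis) by family (x axis), with the mean over 37 arrays as a dot, the lowest to highest array as a line and the background level of 3.19 as a dashed line; open dots mark the 15 genes that were not tested. All 8 ephrins have a filled dot, whereas 6 of the 11 genes of the netrin group have an open one.

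Levels of different genes cannot be set against each other, since each gene has its own probes, so a level says only how far that probe set stood above background. Every family had members far above background on each array. Slit2, a secreted repellent, lay between 11.39 and 13.75, and its receptor Robo1 between 7.37 and 12.71. The neuropilin Nrp1 lay between 11.67 and 13.19 and the plexin Plxnb2 between 10.87 and 12.74. Epha4, an Eph receptor that binds ephrins of both classes, lay between 11.25 and 13.15, and the ephrin Efnb2 between 7.95 and 12.34. Ntn4, a netrin found in basement membranes, had a mean of 11.41, Ntn1 of 10.37, and the semaphorins Sema6d and Sema4b means of 11.94 and 11.27. Efna5 had a mean of 10.51 and Epha5 of 8.15. At the other end, the lowest mean of each family was that of Sema6c (1.77), Plxna4 (2.30), Efnb3 (3.29), Epha8 (2.09), Robo4 (2.03) and Unc5a (1.72), and of these only Efnb3, an ephrin of the B class, was tested.

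All 10 astrocyte markers, among them Gfap, Aqp4, Slc1a3 and Aldh1l1, exceeded background on some arrays of each strain. Between 8 and 10 of them did so on each array. Rbfox3 and Dcx of neurons and Itgam, Cx3cr1 and P2ry12 of microglia stayed at or below background on every array. Other markers of those cell types did exceed it: 3 to 6 of the 10 neuron markers on each array (summed level 12.90 to 14.61 on the log2 scale) and 2 to 11 of the 14 microglial markers (6.70 to 13.98). Cdca7l itself lay at 10.15 to 14.42 on arrays with its plasmid and at 4.12 to 10.43 on vector arrays. The upper quartile of values was 8.36 on the array 129 female vector 1(3) and 9.03 to 9.51 on the other 36. The array labelled B6 female vector 5.1(1) went against its label, with Xist at 2.40 against 10.71 to 12.20 on the other female arrays and the Y-linked Eif2s3y at 11.91 against 11.73 to 12.71 in males. Strain calls that were lost without these 2 arrays, and values in which they weigh, are given without them too. In bulk RNA, fewer cells of a type and less RNA per cell cannot be told apart.

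The strains differed at 19 of the 55 tested guidance genes (34.5%), of which 11 were higher and 8 lower in B6 than in 129 at a Benjamini-Hochberg adjusted p under 0.05 in limma. Among all 25579 tested probe sets, 16.6% passed in this comparison, 10% higher and 6.57% lower in B6. Each guidance gene counts by its highest-mean probe set, whereas this share covers every tested probe set. The sets were not matched by level, so here and below their shares and medians are not like for like. Higher in B6 were the ligands Sema3b, Sema3f, Sema4d, Sema5b, Sema6a, Sema6b, Efna1 and Efna5 and the receptors Plxnb1, Ephb1 and Unc5c. Lower in B6 were the ligands Sema3a, Sema3d, Sema4c and Sema4f and the receptors Nrp2, Plxnb3, Epha2 and Epha7. The median difference over the 55 genes, B6 minus 129, was 0.21 on the log2 scale, against -0.0059 over all tested probe sets. The comparison averages sexes and plasmids and treats arrays with a shared clone label as correlated (0.409). Whether the probes bind the transcripts of both strains alike was not tested.

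**Figure D2:**
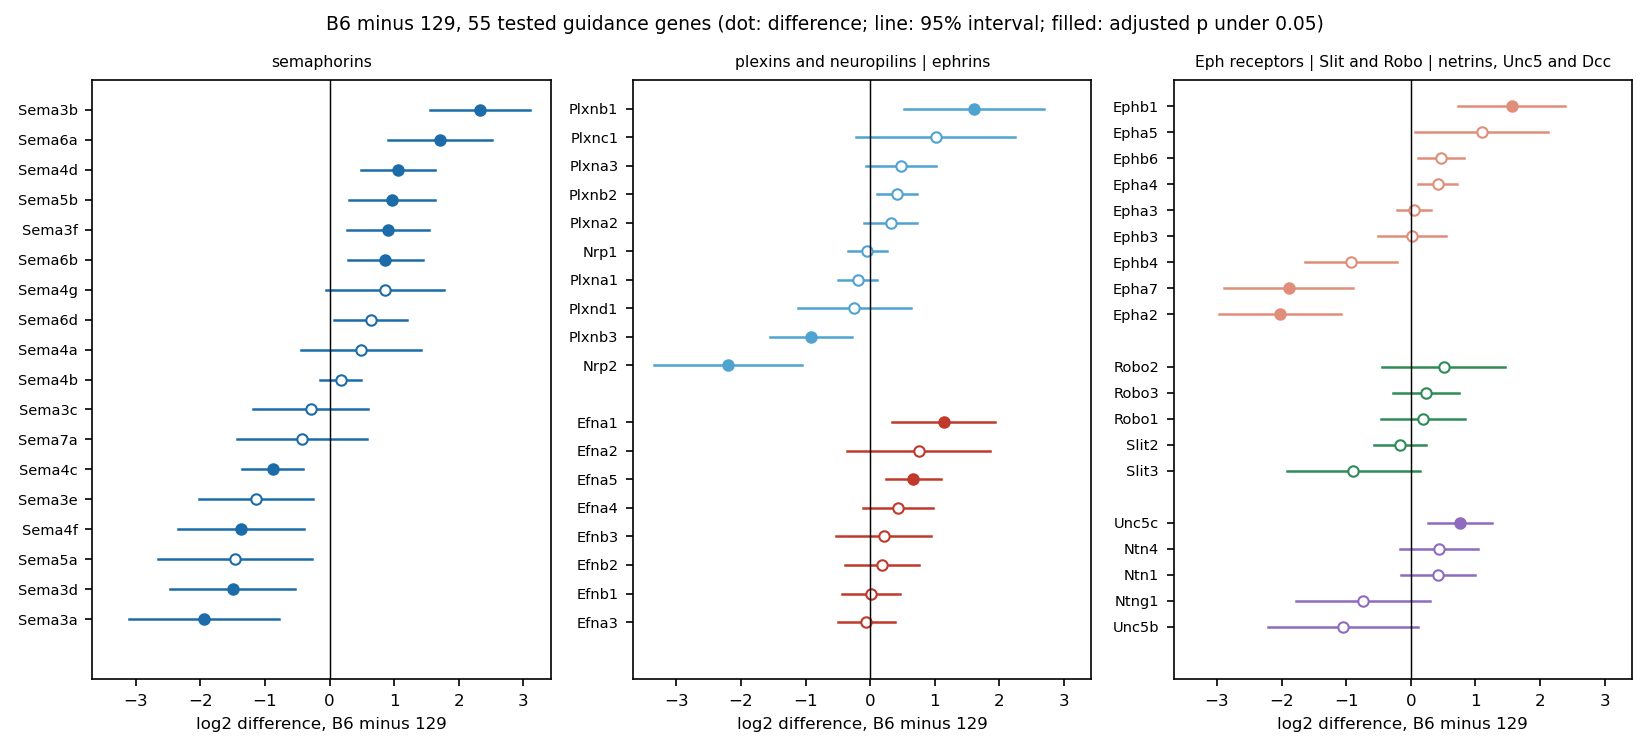
Log2 difference between the strains, B6 minus 129 (x axis), for the 55 tested genes by family (y axis), with 95% intervals as lines and filled dots at an adjusted p under 0.05. The 19 filled dots fall on both sides of 0, from -2.21 for Nrp2 to 2.33 for Sema3b.

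Several of these calls were close to the threshold. Without the 2 arrays that stood apart, 13 guidance genes passed, 11 of them from the 19; the 8 that did not were Sema3d, Sema3f, Sema4f, Sema5b, Sema6b, Plxnb1, Plxnb3 and Unc5c. With any single array left out, the count ran from 12 to 23, the lowest without B6 female Cdca7l 1(4). In vector arrays alone 12 passed, and 12 passed when each clone label was reduced to its mean. The calls for Sema3b, Nrp2, Epha2, Epha7, Sema6a, Ephb1, Sema4d and Sema4c held under all of the alternatives run on the chosen probe sets. Just outside the threshold, on their chosen probe sets, were Epha4 (0.42, adjusted p = 0.0533), Plxnb2 (0.41, adjusted p = 0.0604) and Ephb6 (0.46, adjusted p = 0.0644), B6 minus 129. Ephb4 (-0.93, adjusted p = 0.0643) and Sema3e (-1.14, adjusted p = 0.0680) lay there with negative differences. All 19 differences had the same direction in each of the 4 sets of one sex and one plasmid, and in all 19 the strains' arrays overlapped. The 19 were called on the average of these same 4 sets, so the shared direction is no separate check.

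Among the semaphorins, 6 were higher and 4 lower in B6 of 18 tested. Sema3b, a secreted class 3 semaphorin that signals through neuropilins, had its lowest, median and highest values at 6.12, 8.32 and 10.05 on the 18 arrays of 129 and at 9.26, 10.48 and 11.09 on the 19 of B6. Most arrays separated: 14 of the 19 B6 arrays lay above every 129 array. The difference was 2.33 ± 0.38 (SE) on the log2 scale, a 5.03-fold higher level in B6 (adjusted p = 5.44e-05). Of the 2 other tested probe sets of Sema3b, one differed by 2.24 ± 0.38 (adjusted p = 0.000116) and the other by 0.37 ± 0.29, which did not pass (adjusted p = 0.389).

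Sema6a, a transmembrane ligand of class A plexins, ran from 6.83 through a median of 8.88 to 10.95 in 129 and from 9.25 through 10.76 to 11.41 in B6. All 19 B6 arrays exceeded the 129 median. Its difference was 1.71 ± 0.39 (adjusted p = 0.00337). Sema4d, a transmembrane ligand of Plxnb1, ran from 7.59 through 10.08 to 11.48 in 129 and from 9.45 through 11.19 to 11.70 in B6. The upper ends of both strains nearly met, and 5 of the 18 arrays of 129 lay below every B6 array. Its difference was 1.05 ± 0.28 (adjusted p = 0.0104).

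Sema3a, the founding secreted repellent of the class 3 semaphorins, moved the other way. Its lowest, median and highest values were 3.48, 5.52 and 9.97 in 129 and 3.15, 3.83 and 5.13 in B6, a difference of -1.95 ± 0.57 (adjusted p = 0.0182). The 129 arrays were split: 9 of 18 lay above every B6 array and the others lay within the B6 range. The call was lost in vector arrays alone (adjusted p = 0.0508) and with 1 mean per clone label (adjusted p = 0.0634). Sema3d, another class 3 ligand, ran from 2.38 through 4.16 to 7.89 in 129 and from 2.50 through 3.16 to 3.69 in B6. Only 7 of the 19 B6 arrays exceeded background, against 13 of 18 in 129, and the fitted difference was -1.50 ± 0.48 (adjusted p = 0.0296, or 0.0608 without the 2 arrays that stood apart). Sema4f, a transmembrane class 4 member, had medians of 4.46 in 129 and 3.39 in B6 and differed by -1.37 ± 0.48 (adjusted p = 0.0465). Its call was lost without any one of 22 of the 37 arrays, and without the 2 arrays that stood apart (-1.30, adjusted p = 0.0700) and after quantile normalization (adjusted p = 0.0663).

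The remaining semaphorins with a call, named after their values were seen, differed by less than 1 on the log2 scale. Sema4c, a class 4 ligand of Plxnb2, lay at 8.11 to 9.78 in 129 and at 5.48 to 8.87 in B6, with 14 of the 18 arrays of 129 above every B6 array. It differed by -0.88 ± 0.23 (adjusted p = 0.00996). Sema5b, Sema3f and Sema6b were higher in B6 by 0.97, 0.90 and 0.86, with adjusted p-values of 0.0404, 0.0439 and 0.0376. Each of those 3 calls was lost in vector arrays alone, with 1 mean per clone label and without the 2 arrays that stood apart, and that of Sema3f also after quantile normalization (adjusted p = 0.0825). They were also lost without any one of 16 arrays for Sema5b, 24 for Sema3f and 9 for Sema6b. The other tested probe set of Sema3f differed by 0.50 and did not pass (adjusted p = 0.361). That of Sema5b differed by 0.64 and did not pass either (adjusted p = 0.0738). Sema6b is a transmembrane relative of Sema6a, and Sema5b carries thrombospondin repeats beside its semaphorin domain.

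Of the 10 tested plexins and neuropilins, 1 was higher and 2 were lower in B6. Nrp2, the co-receptor that prefers class 3 ligands such as Sema3f, ran from 5.81 through a median of 9.42 to 11.07 in 129 and from 2.68 through 6.71 to 7.79 in B6. The high values belonged to 129: 11 of its 18 arrays lay above every B6 array. The difference was -2.21 ± 0.56, a 4.61-fold lower level in B6 (adjusted p = 0.00729). Nrp1, the co-receptor that prefers Sema3a, differed by -0.043 ± 0.15 and did not pass (95% interval -0.34 to 0.25). B6 arrays thus had lower Nrp2 values, with no call for Nrp1. The calls for the Nrp2 ligand Sema3f, higher in B6, and for Sema3a, lower in B6, were each lost under some alternatives.

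Plxnb1, the high-affinity receptor of Sema4d, ran from 5.46 through 10.17 to 12.16 in 129 and from 8.14 through 11.44 to 12.15 in B6. It was higher in B6 by 1.61 ± 0.53 (adjusted p = 0.0354), as was its ligand Sema4d. No B6 array lay above the highest 129 array, and 5 arrays of 129 lay below all of B6. The call was lost without any one of 7 arrays, without the 2 arrays that stood apart (adjusted p = 0.0689), with 1 mean per clone label (adjusted p = 0.0721) and in vector arrays alone (adjusted p = 0.0955). Plxnb3, a receptor of Sema5a, was lower in B6 by 0.92 on the log2 scale, a fitted difference of -0.92 ± 0.31 (adjusted p = 0.0393), and 14 of the 19 B6 arrays exceeded background against all 18 in 129. The call was lost without any one of 8 arrays, without the 2 arrays that stood apart (-0.88, adjusted p = 0.0685) and with 1 mean per clone label (adjusted p = 0.0674).

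Of the 8 ephrins, 7 had a positive difference, B6 minus 129, and 2 passed. A positive difference was found for 61.8% of the 55 guidance genes and 49.4% of all tested probe sets. Efna1, an A-class ephrin and the ligand commonly paired with Epha2, ran from 4.48 through 4.96 to 6.18 in 129 and from 4.47 through 6.05 to 8.25 in B6. The B6 arrays were spread: 9 of 19 lay above every 129 array and the others did not exceed its highest array. The difference was 1.14 ± 0.39 (adjusted p = 0.0427), and the call was lost without any one of 21 arrays, in vector arrays alone (adjusted p = 0.253), with 1 mean per clone label (adjusted p = 0.0917) and with no filter on low values (adjusted p = 0.0538). Efna5 had medians of 10.24 in 129 and 10.90 in B6 and differed by 0.67 ± 0.21 (adjusted p = 0.0268, or 0.0554 in vector arrays alone). Efnb1 and Efnb2, transmembrane ephrins of the B class, did not pass.

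Of the 9 tested Eph receptors, 1 was higher and 2 were lower in B6. Epha2, a receptor for A-class ephrins, ran from 5.62 through a median of 7.88 to 11.41 in 129 and from 5.36 through 6.19 to 8.77 in B6. Of the 18 arrays of 129, 17 exceeded the B6 median and 5 lay above every B6 array. The difference was -2.02 ± 0.46, a 4.06-fold lower level in B6 (adjusted p = 0.00313), the opposite direction to its ligand Efna1. Epha7 ran from 2.63 through 4.01 to 7.54 in 129, above background on 11 of 18 arrays. It lay between 2.53 and 3.09 in B6, at or below background on all 19 arrays. Its level was therefore at least 2.70-fold higher in 129, computed against the higher of the background level and the measured value (fitted difference -1.89 ± 0.49, adjusted p = 0.00789). Ephb1, a receptor for B-class ephrins, ran from 3.33 through 6.15 to 7.19 in 129 and from 5.50 through 7.26 to 9.73 in B6. It was higher in B6 by 1.56 ± 0.40 (adjusted p = 0.00832), with 10 of the 19 B6 arrays above every 129 array.

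**Figure D3:**
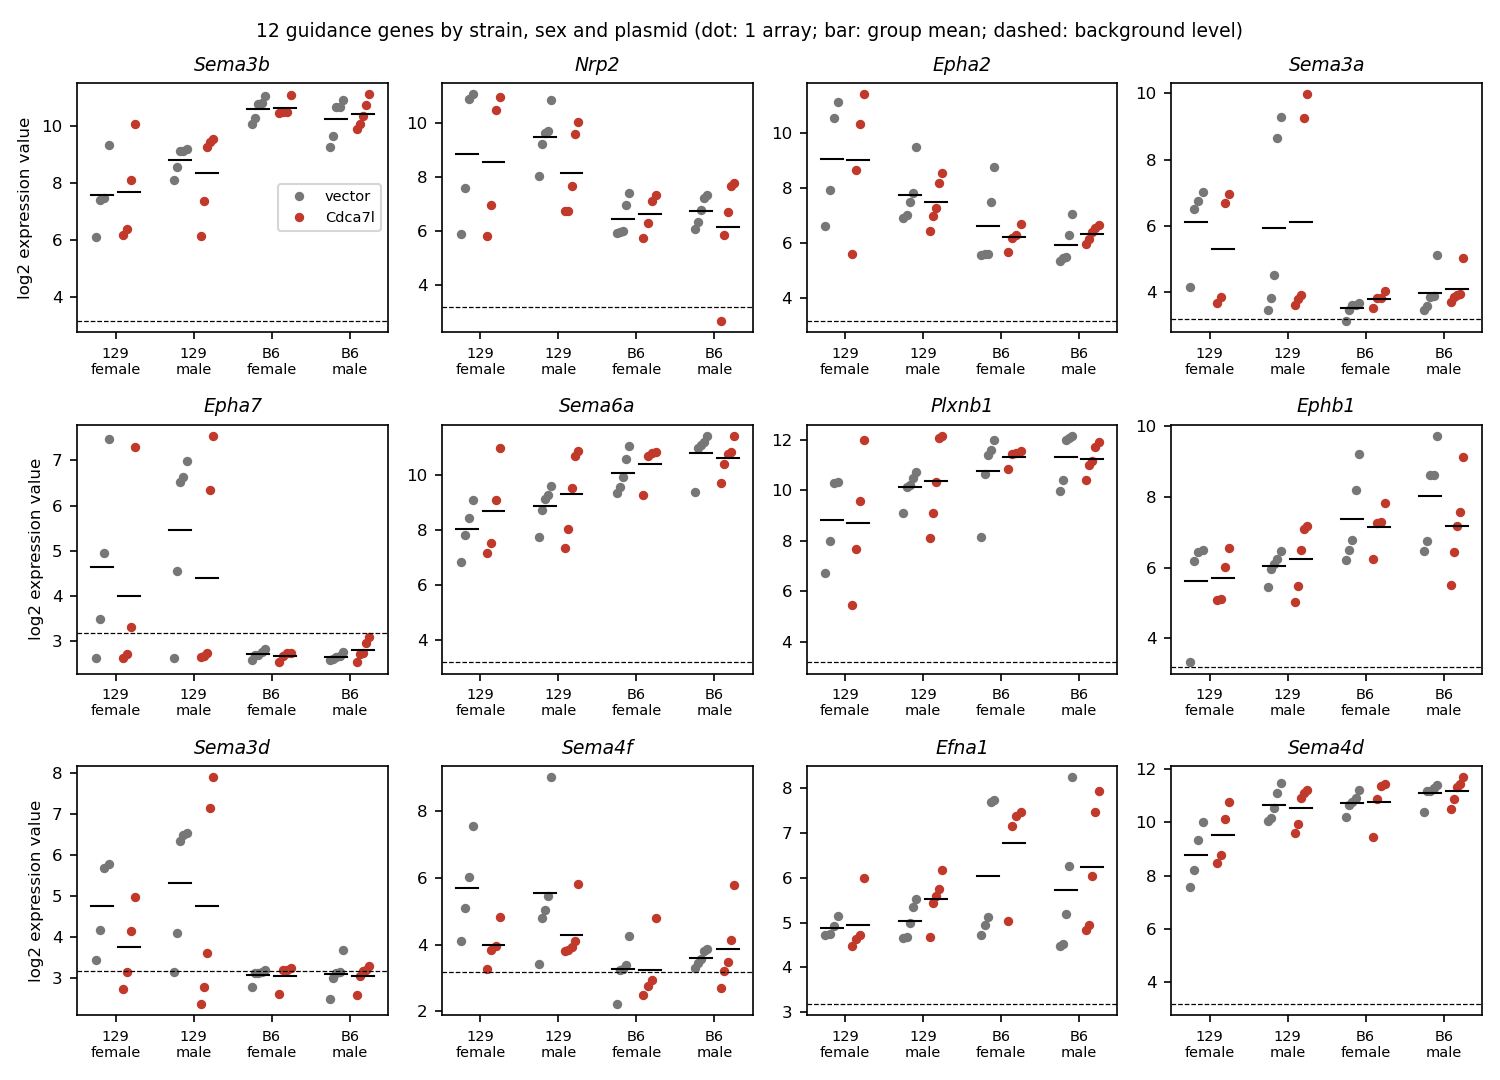
Deposited log2 value on each array (y axis) for the 12 called genes with the largest strain differences, by strain and sex (x axis) and plasmid (grey, vector; red, Cdca7l), with bars at group means and the background level of 3.19 dashed. Sema3b and Sema6a sit higher in B6 with vector and Cdca7l dots side by side, and the 19 B6 dots of Epha7 sit below the dashed line while 11 of 18 dots of 129 sit above it.

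Promoter sequence is shown for the 3 genes whose strain call held under all alternatives and whose promoter has a single entry in the RefSeq promoter table (GRCm38.p6, a C57BL/6J assembly): Nrp2 and Epha2, lower in B6, and Ephb1, higher in B6. Each is the 250 bases before the annotated start, 5′ to 3′ on the gene's strand, and capitals mark GGGCGG or its reverse complement, the letters of the GC box that Sp1 binds. Nrp2 lies at chr1:62703067-62703316 on the plus strand, Epha2 at chr4:141300971-141301220 on the plus strand and Ephb1 at chr9:102354694-102354943 on the minus strand.
Nrp2: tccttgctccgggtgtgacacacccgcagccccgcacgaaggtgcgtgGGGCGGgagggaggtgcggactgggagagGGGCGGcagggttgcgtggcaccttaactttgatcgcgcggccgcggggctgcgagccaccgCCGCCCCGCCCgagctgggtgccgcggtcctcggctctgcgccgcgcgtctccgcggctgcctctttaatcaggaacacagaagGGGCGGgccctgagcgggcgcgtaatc
Epha2: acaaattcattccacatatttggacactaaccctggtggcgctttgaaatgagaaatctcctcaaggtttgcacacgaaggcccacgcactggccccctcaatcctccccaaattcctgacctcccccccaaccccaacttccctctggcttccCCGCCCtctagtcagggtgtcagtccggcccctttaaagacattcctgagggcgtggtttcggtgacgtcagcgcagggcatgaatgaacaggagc
Ephb1: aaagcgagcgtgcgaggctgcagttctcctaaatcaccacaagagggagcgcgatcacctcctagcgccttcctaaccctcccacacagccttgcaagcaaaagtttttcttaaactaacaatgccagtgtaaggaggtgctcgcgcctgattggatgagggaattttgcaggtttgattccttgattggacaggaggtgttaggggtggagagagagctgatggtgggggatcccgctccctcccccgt
The G and C content was 72.4% for Nrp2, 55.6% for Epha2 and 54.0% for Ephb1, and GGGCGG, counted on both strands with overlaps, occurred 5 times in Nrp2, 1 time in Epha2 and 0 times in Ephb1. Over all guidance genes with an entry, 54 of 76 annotated starts (71.1%) had GGGCGG in this window, against 32.7% of all 32851 starts in the table, which includes noncoding genes. CACGTG, the E-box that MYC-family factors can bind, was searched because the protein of Cdca7l binds MYC. It occurred at 5.26% of the guidance genes' starts and 6.02% of all starts, and in none of the 3 sequences. The 10 genes without an entry were Sema3b, Sema3f, Sema6a, Plxna1, Plxna4, Efnb3, Slit1, Ntn1, Unc5d and Dcc.

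The Slit and Robo genes showed no strain call among 5 tested. The netrin group showed 1, Unc5c, a repulsive netrin receptor, which had medians of 10.25 in 129 and 10.65 in B6 and was higher in B6 by 0.76 ± 0.24 (adjusted p = 0.0297). That call was lost without B6 female Cdca7l 1(4) (adjusted p = 0.0507), without the 2 arrays that stood apart (0.67, adjusted p = 0.0679) and in vector arrays alone (adjusted p = 0.0845). The other tested probe set of Unc5c differed by 0.38 and did not pass (adjusted p = 0.338). Slit2 differed by -0.16 ± 0.20 and Robo1 by 0.19 ± 0.32, neither past the threshold.

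Other probe sets of the same genes were compared with the chosen ones. Of the 19 called genes, 8 had other tested probe sets, 11 in all. All 11 differed in the same direction and 7 passed. Of the tested genes without a call, 15 had other tested probe sets, 31 in all, and 6 of those passed in the direction of the chosen one. For Epha4 it was 1 of 4 others (1.56, adjusted p = 0.00297). For Epha5, a receptor for A-class ephrins, it was all 3 others (1.45 to 1.92, adjusted p = 0.00749 to 0.0397), against 1.10 (adjusted p = 0.129) on the chosen one. For Sema5a, a ligand of Plxnb3, it was both others (-1.70 and -1.19, adjusted p = 3.6e-05 and 0.00326), against -1.46 (adjusted p = 0.0810) on the chosen one. These 3 genes were named after their values were seen and are not among the 19.

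The tested guidance genes had a median within-group SD of 0.892, against 0.643 over all tested probe sets. The 2 sets are unlike: the first holds the highest-mean probe set of each gene, the second every tested probe set. They were not matched by level. Sema3a (1.76), Plxnc1 (1.67), Unc5b (1.65), Nrp2 (1.61) and Epha7 (1.49) had the largest SD. In 129 this spread followed the clone labels for several genes. Epha7 stood at 7.31 and 7.47 on the Cdca7l and vector arrays of female label 4(1), at 6.35 and 6.63 for male label 3(1) and at 7.54 and 6.99 for male label 5(1). It stood at 2.71 and 2.63 for female label 2(3) and at 2.66 and 2.63 for male label 3(2). Sema3a stood at 9.97 and 9.28 for male label 3(1) and at 9.27 and 8.67 for male label 5(1), but at 3.62 and 3.48 for male label 3(2). Not every pair was alike: Epha7 stood at 2.74 and 4.55 for male label 3(3), and Sema3a at 3.69 and 6.52 for female label 2(3). By label means, Sema3a and Nrp2 were highest in 129 at the labels with (1) in parentheses. These were 2(1), 4(1), 3(1) and 5(1), with Sema3a at 6.72, 6.99, 9.63 and 8.97 and Nrp2 at 10.70, 11.01, 9.87 and 9.62. In B6, Nrp2 stood at 7.41, 5.93 and 4.73 for labels 2.1(1), 5.1(1) and 5.6(1). The number in parentheses entered the model only as part of the label. Its part in the strain differences was not tested.

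Markers of other cell types moved with strain too. The summed level of the 10 fibroblast and meningeal markers (1 of them, Pdgfra, is also an oligodendrocyte lineage marker), on the log2 scale, had a median of 14.50 (11.22 to 16.04) in 129 and 12.12 (11.43 to 13.89) in B6. The collagen genes Col1a1, Col1a2 and Col3a1 differed by -2.91, -2.67 and -5.35, B6 minus 129 (adjusted p = 0.00215, 0.000165 and 0.000225), and Col3a1, Lum, Foxd1 and Slc22a6 were at or below background on every B6 array. All 8 endothelial markers were at or below background on every B6 array and 4 of 8 on every 129 array. Of 7 tested ependymal and choroid plexus markers, 5 had a positive difference, B6 minus 129, and 3 passed, all higher in B6. Foxj1 and Ccdc153 were among the 3, at 2.00 and 3.07 (adjusted p = 0.0265 and 0.00136). Of the astrocyte markers, Aqp4 and Slc1a3 were higher in B6 by 0.92 and 0.94 (adjusted p = 0.0158 and 0.0351), and the summed astrocyte level had medians of 16.24 in 129 and 16.66 in B6.

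Within a strain, the 19 called guidance genes were set against the fibroblast and meningeal level, over means of the arrays with 1 clone label (10 labels in 129, 12 in B6). This comparison was chosen after the marker levels had been seen, and it gave 38 relations over the 2 strains. The labels of both sexes were pooled and permuted freely within a strain. In 129, the labels with (1) in parentheses had the highest marker levels (14.62 to 16.01) and the highest Nrp2 values (9.62 to 11.01). Such labels may not be independent, so the permutation p-values may be too small. Sema4c followed the marker level in 129 (Pearson r = 0.864, permutation p = 0.00042, adjusted 0.016; Spearman rho = 0.855, permutation p = 0.00318, adjusted 0.0403). Without the 2 labels farthest from the median marker level its r was 0.797. Nrp2 had r = 0.776 in 129 (permutation p = 0.00603, adjusted 0.0764) with rho = 0.867 (permutation p = 0.00221, adjusted 0.0403), and r = 0.699 without the 2 farthest labels. In B6, Nrp2 had r = 0.633 (permutation p = 0.0272, adjusted 0.167) with rho = 0.839 (permutation p = 0.001, adjusted 0.038), and r = 0.693 without the 2 farthest. No other relation passed after adjustment by either measure. Sema3a, with r = 0.797 in 129 (permutation p = 0.00283), reached an adjusted p of 0.0538, and Epha7, with r = 0.711 (permutation p = 0.0125), one of 0.119. Of the other marker lists, 3 of 6 tested neuron markers were higher and 1 lower in B6, 2 of 5 oligodendrocyte lineage markers were higher, 1 of 4 pericyte markers was higher, 1 of 2 endothelial markers was lower and 0 of 9 microglial markers passed. The part of these other cell types in the strain differences was not tested.

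**Figure D4:**
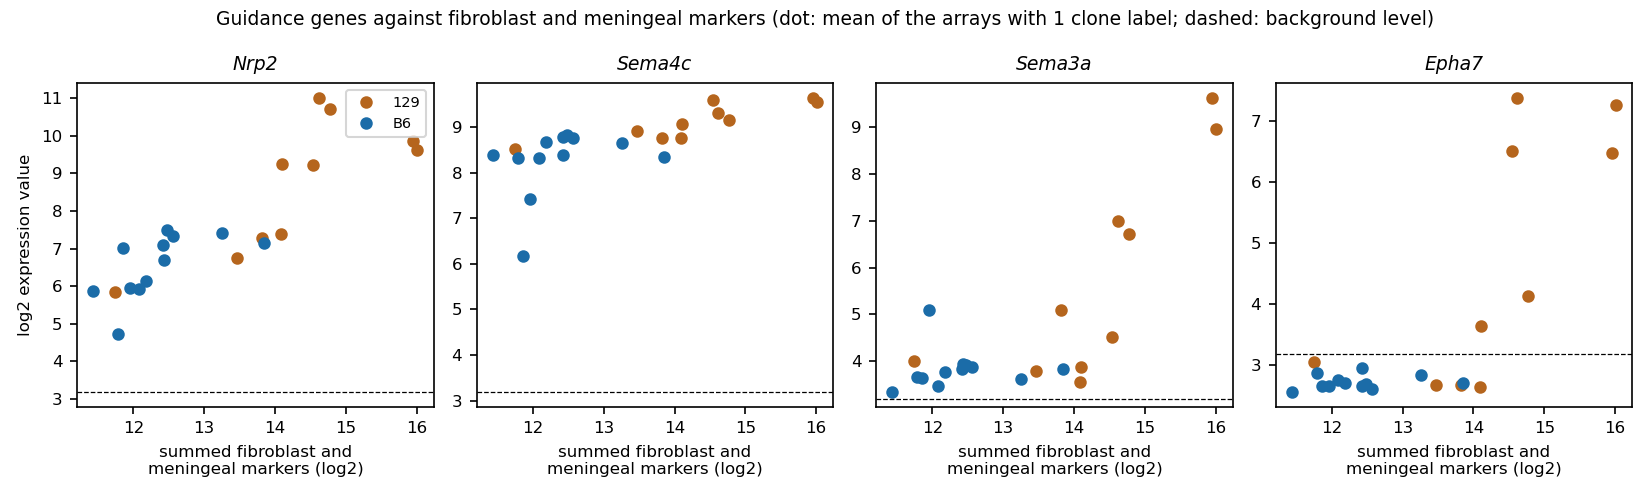
Log2 value of 4 genes (y axis) against the summed log2 level of fibroblast and meningeal markers (x axis); each dot is the mean of the arrays with 1 clone label, for 10 labels of 129 (brown) and 12 of B6 (blue). Nrp2 and Sema4c rise with the marker level in 129 (r = 0.776 and 0.864), and the highest Sema3a and Epha7 dots belong to 129 labels with high marker levels.

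Cytoplasmic effectors, which carry the receptors' signals to the cytoskeleton, also differed between strains in both directions. Of 40 tested effectors, 4 were higher and 4 lower in B6, with a median difference of 0.0070. By smallest p these were Ablim1, an actin-binding protein (1.49, adjusted p = 8.4e-07), Mical2, an actin-oxidising enzyme related to the plexin effector Mical1 (-3.36, adjusted p = 0.00309), Rasa1, a Ras GTPase-activating protein (-0.56, adjusted p = 0.00457), and Srgap1, a GTPase-activating protein that binds Robo1 (0.93, adjusted p = 0.0125). Of 33 tested other cues, receptors and adhesion molecules, 7 were higher and 2 lower in B6, with a median of 0.23. They included the syndecans Sdc4 (1.04, adjusted p = 2.18e-07) and Sdc2 (0.45, adjusted p = 0.000131), the hedgehog co-receptor Cdon (2.23, adjusted p = 8.23e-05) and the glypican Gpc1 (-0.59, adjusted p = 0.00939). Both counts stand beside the 16.6% of all tested probe sets that passed in this comparison, a set matched to neither list.

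The Cdca7l plasmid, in contrast, was followed by no call among the 55 guidance genes. Averaged over strain and sex, 0 passed and 1 had an unadjusted p under 0.05, against 0.00782% and 1.27% of all tested probe sets by the same 2 rules. The differences, Cdca7l minus vector, had a median of 0.10 on the log2 scale and none exceeded 1 in size. The 95% intervals of the 55 genes reached from -1.57 to 1.78 at their widest. The SE had a median of 0.288 and the intervals were narrower for many genes, such as Plxna1 (-0.31 to 0.23) and Plxnb2 (-0.27 to 0.28). The fit took a Cdca7l and a vector array of the same clone label as independent, although most such pairs were positively correlated. Its SE and p-values for Cdca7l therefore tend to be too large. With the clone label as a random or a fixed block, 0 genes passed as well. All 8 ephrins had a positive difference, with a median of 0.17, and none passed. Of the 55 guidance genes 65.5% had a positive difference, and of all tested probe sets 55.2%.

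**Figure D5:**
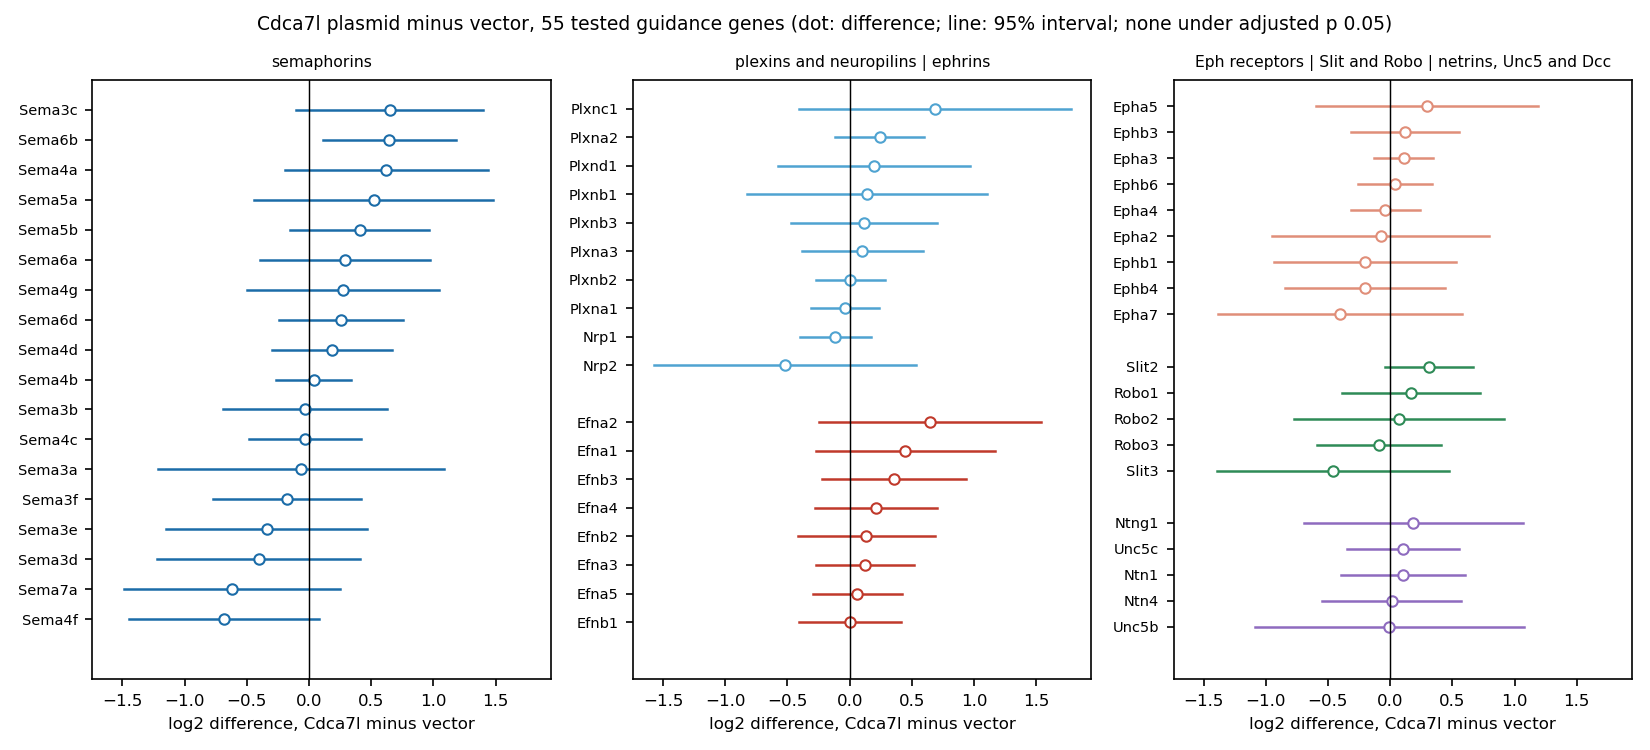
Log2 difference, Cdca7l minus vector (x axis), averaged over strain and sex, for the 55 tested genes by family (y axis), with 95% intervals as lines; all dots are open because none had an adjusted p under 0.05. Dots lie between -0.68 for Sema4f and 0.68 for Plxnc1.

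The 5 genes with the smallest p in the averaged comparison were Sema6b, Sema4f, Slit2, Sema3c and Sema4a, each with an adjusted p of 0.999. Sema6b ran from 4.17 through a median of 5.30 to 6.86 with Cdca7l and from 3.91 through 4.49 to 6.60 with vector, a difference of 0.65 ± 0.26 with most of both ranges shared. Sema3c, a secreted class 3 semaphorin, ran from 10.75 through 11.49 to 12.82 with Cdca7l and from 5.50 through 11.34 to 12.63 with vector, a difference of 0.65 ± 0.37. Its lowest vector value came from 129 female vector 1(3), and the difference was 0.27 without that array and 0.26 without both arrays that stood apart. Slit2 differed by 0.31 ± 0.17, Sema4f by -0.68 ± 0.37 (-0.47 without both arrays) and Sema4a, a class 4 semaphorin with roles in immune cells, by 0.62 ± 0.40.

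Within single groups no guidance gene passed either. In 129 females, 0 passed and 1 had an unadjusted p under 0.05 (0% and 1.97% of all probe sets). Sema4f stood at 3.28, 3.85, 3.95 and 4.81 with Cdca7l and at 4.11, 5.10, 6.02 and 7.57 with vector, ranges that overlapped. It differed by -1.72 ± 0.80, or -1.10 without 129 female vector 1(3). Sema3c stood at 11.18, 11.27, 11.76 and 11.87 with Cdca7l and at 5.50, 11.48, 11.50 and 11.72 with vector. Its difference of 1.47 ± 0.79 came to -0.045 without the array 129 female vector 1(3). Efna5 differed by 0.67 ± 0.37, or 0.14 without that array.

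In 129 males, 0 passed and 0 had an unadjusted p under 0.05 (0% and 1.65% of all probe sets). Sema7a, a membrane-anchored semaphorin that signals through integrins and Plxnc1, stood at 4.80, 6.73, 6.94, 6.98 and 7.01 with Cdca7l and at 6.59, 6.72, 7.60, 7.82 and 10.98 with vector. The ranges overlapped, and each held 1 distant array. The difference was -1.45 ± 0.82, or -0.69 without 129 male vector 3(3). Sema4f differed by -1.25 ± 0.72, or -0.38 without that same array. Plxnd1, a receptor of Sema3e, differed by -0.98 ± 0.72, which came to -0.52 without 129 male Cdca7l 5(1) and to -1.51 without 129 male Cdca7l 3(2). All 9 tested microglial markers had a negative difference in this group, Cdca7l minus vector (median -2.37). Of these, 5 had an unadjusted p under 0.05 and 0 passed after adjustment. Their summed level lay at 7.19 to 10.58 with Cdca7l and at 8.50 to 13.98 with vector.

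In B6 females, 0 passed and 0 had an unadjusted p under 0.05 (0% and 0.555% of all probe sets). Plxnc1, the receptor of Sema7a, stood at 4.56, 6.27, 7.86 and 8.49 with Cdca7l and at 3.58, 4.02, 4.14, 6.23 and 6.92 with vector, a difference of 1.82 ± 1.09 with overlapping ranges. The lowest vector value was that of the array with the doubtful label, 5.1(1), and the difference was 1.47 without the 2 arrays that stood apart. Sema6b differed by 0.78 ± 0.53 (1.23 without B6 female Cdca7l 6(3), 0.50 without B6 female Cdca7l 3(3)) and Sema4a by 1.16 ± 0.81. All 9 tested microglial markers had a negative difference (median -1.66), none with an unadjusted p under 0.05, and their summed level lay at 6.93 to 8.87 with Cdca7l and at 6.71 to 13.34 with vector.

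In B6 males, 0 passed and 1 had an unadjusted p under 0.05 (0% and 2.1% of all probe sets). Efna3, an A-class ephrin, stood at 8.22, 8.70, 9.44, 9.51 and 9.55 with Cdca7l and at 7.30, 7.65, 8.13, 8.57 and 9.53 with vector. Its ranges overlapped and its difference was 0.84 ± 0.37. Plxnd1 stood at 7.88, 8.18, 8.51, 8.58 and 8.73 with Cdca7l and at 5.07, 5.91, 6.21, 8.21 and 9.15 with vector, a difference of 1.47 ± 0.72. The Cdca7l arrays lay close together inside the wide range of the vector arrays. Sema6b differed by 0.78 ± 0.50. Here all 9 tested microglial markers had a positive difference (median 1.09), none with an unadjusted p under 0.05, with summed levels of 7.39 to 11.45 with Cdca7l and 6.92 to 8.83 with vector. In 129 females the 9 had a median of -0.28, again none above 0. The part of these markers in the differences of guidance genes was not tested.

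The Cdca7l effect was not shown to differ between strains or sexes for any guidance gene. For its difference between B6 and 129, 0 passed and 1 had an unadjusted p under 0.05 (0% and 1.68% of all probe sets). For its difference between males and females, 0 passed and 0 had an unadjusted p under 0.05 (0% and 0.719%). Of the pathway lists, 0 of 40 effectors and 0 of 33 other cues and receptors passed in the averaged Cdca7l comparison.

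Between males and females, averaged over strain and plasmid, 0 of the 55 genes passed and 5 had an unadjusted p under 0.05, against 0.0743% and 11.6% of all probe sets. The lowest adjusted p was that of Sema4d at 0.318. Sema4d ran from 9.60 through 11.10 to 11.70 on 20 male arrays and from 7.59 through 10.22 to 11.43 on 17 arrays labelled female, a difference of 0.93 ± 0.28, male minus female. It was 0.79 (adjusted p = 0.263) without the 2 arrays that stood apart, and it passed without 129 female Cdca7l 1(3) (1.07, adjusted p = 0.0394). Unc5b, a netrin receptor of vessels and axons, went the other way, from 3.75 through 7.15 to 10.58 in males and from 5.47 through 8.11 to 10.32 in females. It differed by -1.27 ± 0.57 (adjusted p = 0.402), or by -1.52 (adjusted p = 0.283) without the 2 arrays, and the ranges overlapped almost wholly.

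The strain difference was not shown to depend on sex: 0 passed and 1 had an unadjusted p under 0.05, against 0% and 8.27% of all probe sets. Of the 19 called strain differences, 13 were larger in females. Sema3b differed by 2.96 in females and 1.74 in males, B6 minus 129, and Sema4d by 1.60 and 0.52, the latter with an adjusted p of 0.603 for the difference between the sexes. Nrp2 differed by -2.18 in females and -2.38 in males, and Sema6a by 1.87 and 1.63. Without the 2 arrays that stood apart, the differences in females were 2.92 for Sema3b, 1.38 for Sema4d, -2.61 for Nrp2 and 2.06 for Sema6a.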

How the data were processed

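RNA of 37 cultures was hybridised to 1-colour arrays. The authors deposited log2 expression values for 45101 probe sets, made with GCRMA and Partek 6.5 per the submitters' processing notes. How the arrays were normalized to each other was not given in the sources used here. GCRMA pulls dim probe sets towards a common floor, so differences near background are compressed. The values (1.17 to 15.3) were used as deposited. They carry no count depth, and precision is set by how many arrays a group has.

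Symbols came from GEO's platform annotation: 34945 probe sets had 1 symbol, 932 several and 9160 none, and 64 control probe sets were left out. All 70 guidance genes matched RefSeq by Entrez ID with the same symbol. Tests covered the 25579 probe sets over the table's median on 4 or more arrays and left out 19458. The model, fitted to all arrays with limma 3.58.1 (R 4.3.3), had 8 group means, empirical Bayes moderation and 29 residual degrees of freedom, with p-values adjusted by Benjamini-Hochberg over all tested probe sets at 0.05. There were 10 comparisons. The 7 on Cdca7l used no replicate block. The 3 on strain and sex used the clone label within strain and sex as a random block, which has 22 levels. The fit was tested on simulated data.

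As a check of pairing, the deviations from group means of arrays sharing a clone label were correlated. The 3 pairs of B6 females gave 0.432 to 0.775 and the 4 of B6 males 0.376 to 0.572. In 129 the 4 pairs of females gave 0.061 to 0.716 and the 4 of males -0.0887 to 0.623. In each sex 3 of the 4 were over 0.1 but not all. The main Cdca7l comparisons took the labels of neither strain as pairs. The random block of the strain and sex comparisons includes the labels of both strains.

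Named with values were the 12 called genes with the largest difference in a comparison, the 5 with the smallest p for the averaged Cdca7l effect and the 3 in each group, and the highest and lowest of each family. Other genes were named after their values were seen. At most 4 called genes are named for each of the pathway lists (46 effectors, 38 other cues and receptors). Lists of markers for astrocytes, neurons, the oligodendrocyte lineage, microglia, endothelium, pericytes, fibroblasts and ependyma were also read. The guidance genes and the lists were chosen with earlier results of these data known. Permutation tests of correlations drew 100000 permutations. Promoter sequences were read from RefSeq for 60 of the 70 genes.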

Additional observations from a re-analysis of the deposited data

Results flagged for a closer look

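Single arrays stood apart from their group by Dixon's test in 30 of 256 sets of a named gene in a group (11.7%). Chance gives about 1 in 20 if sets are independent and normally distributed. Many of these genes were named for large differences or small p-values on the same arrays, and the sets share arrays. No rate over all probe sets is given, so no excess for these genes is read from the 11.7%. A set holds 4 or 5 arrays, and the values are log2 values, each with the range of the other arrays of its group.

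On 129 female vector 1(3), the array with the low upper quartile, Robo1 was at 7.37 (others 11.78 to 12.24), Sema3c at 5.50 (11.48 to 11.72) and Efnb3 at 4.71 (2.58 to 2.87). On 129 female vector 4(1), Ephb1 was at 3.33 (the others at 6.18 or more), and on 129 female vector 2(3), Sema6d was at 11.97 (10.36 to 10.58). On 129 female Cdca7l 1(3), Efna1 was at 5.99 (4.48 to 4.71) and Sema6b at 6.21 (4.17 to 4.35), and on 129 female Cdca7l 4(1), Epha7 was at 7.31 (2.63 to 3.32).

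On 129 male vector 3(3), Sema7a was at 10.98 (6.59 to 7.82), Sema6d at 10.51 (11.99 to 12.57) and Slit2 at 12.75 (13.30 to 13.50). On 129 male Cdca7l 1(4), Sema7a was at 4.80 (6.73 to 7.01), and on 129 male Cdca7l 3(1), Sema4f was at 5.81 (3.81 to 4.12).

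On B6 female Cdca7l 6(3), Efna1 was at 5.05 (7.17 to 7.47), Sema6a at 9.25 (10.67 to 10.82), Plxnb1 at 10.85 (11.44 to 11.54) and Nrp1 at 13.06 (12.41 to 12.46). On B6 female Cdca7l 4(5), Efnb3 was at 5.40 (2.84 to 2.98), Efnb2 at 10.92 (11.78 to 11.90) and Sema3d at 2.62 (3.19 to 3.24). On B6 female vector 4(5), which shares its label, Sema3d was at 2.78 (3.13 to 3.20). On B6 female Cdca7l 3(3), Sema3b was at 11.05 (10.42 to 10.48), and on B6 female vector 3(3), Sema6b was at 6.30 (4.17 to 4.55).

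On B6 male vector 4(3), Sema6d was at 10.69 (12.59 to 12.98), Sema6a at 9.38 (10.96 to 11.39) and Sema4d at 10.38 (11.19 to 11.42). On B6 male Cdca7l 4(3), with the same label, Sema6d was at 11.26 (12.41 to 12.80). Sema3a stood apart on both arrays of B6 male label 3(5), at 5.13 with vector (3.48 to 3.90) and 5.04 with Cdca7l (3.71 to 3.95). On B6 male vector 2(4), Sema4a was at 6.32 (2.73 to 3.64).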

How the results depend on the processing

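The direction of all 19 strain differences held under every alternative run, and 8 of the calls held too on the chosen probe sets: Sema3b, Nrp2, Epha2, Epha7, Sema6a, Ephb1, Sema4d and Sema4c. The strain count of 19 came to 12 with 1 mean per clone label, 12 in vector arrays alone and 13 without the 2 arrays that stood apart. It was 18 with no filter on low values and with a filter at 5, 19 after quantile normalization and with 1 probe set per gene, and 21 with trend and robust priors. With array weights it was 32, the sex count 14 and the count for strain by sex 11, against 19, 0 and 0 without weights. The estimate of these weights did not converge and the weights ran from 0.0357 to 10.06, with 45% of all probe sets called for strain. With each array left out in turn the strain count ran from 12 (without B6 female Cdca7l 1(4)) to 23, and 11 of the 19 calls were kept throughout. The sex count ran from 0 to 1, the 1 without 129 female Cdca7l 1(3). All 7 counts on Cdca7l and the count for strain by sex stayed at 0 with any array left out, and the 7 also under every other setting. Against the random replicate block of the strain comparison, the fit with no replicate block called 25 guidance genes, all 19 among them. For Cdca7l, the random and the fixed replicate block each gave 0 calls. Differences changed sign for Sema3c in 129 females, at -0.045 without 129 female vector 1(3) and without both arrays that stood apart (up to 2.03 with another array left out), and for Efna5 in 129 females, at -0.0067 with array weights. The causes were not tested. With 4 or 5 arrays a group, the median SE of a guidance gene within 1 group was 0.551 to 0.616 on the log2 scale, which limits what a single group can show.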
